A study of Equus caballus with 15 samples.

Results

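The genes described here encode nuclear subunits of the oxidative phosphorylation machinery of mitochondria, together with cytochrome c. They were taken by gene symbol from the count table: names beginning with NDUFA, NDUFB, NDUFC, NDUFS or NDUFV and a digit, NDUFAB1, SDHA to SDHD, names beginning with UQCR, CYC1, CYCS, names beginning with COX and a digit from 4 to 8, and names beginning with ATP5. This gave 76 of the 30297 genes in the table. The rule itself used no measured value, though it was set with earlier results of these data known. They were measured by RNA-seq in 5 horses of 5 to 7 years, 4 mares and 1 gelding, which had been euthanized. From the front limb of each horse a punch of 4 mm was taken where the superficial digital flexor muscle joins its tendon, and frozen sections of about 200 micrometres were collected as the myotendinous junction (MTJ, the zone where muscle fibres anchor in tendon, with muscle and tendon around it), as muscle and as tendon. The groups were thus 5 MTJ, 5 muscle and 5 tendon libraries, each horse giving 1 of each, and no treatment was compared. Training was labelled too, but the labels of horse 14 differed between its libraries and were not used. Values given for 5 libraries are always in the order of horses 14, 16, 17, 18 and 20.

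Oxidative phosphorylation is the main route by which muscle fibres that work for long periods make ATP. Complexes I (NADH dehydrogenase) and II (succinate dehydrogenase) pass electrons through ubiquinone to complex III, cytochrome c carries them to complex IV (cytochrome c oxidase), which hands them to oxygen, and complex V (ATP synthase) makes ATP from the proton gradient that complexes I, III and IV build. Tendon is mostly collagen with few cells and few mitochondria. Several subunits of complex IV come as pairs of genes, one with its highest level in heart and skeletal muscle and one found in most tissues. The balance within a pair can thus differ between tissues. Subunits encoded in mitochondrial DNA were not analysed here.

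Library totals ran from 15304218 to 19295339 counts. The 76 genes together took 3.22, 3.48, 2.95, 2.73 and 3.81% of all counts in the MTJ libraries, 3.55, 3.49, 3.27, 3.17 and 4.06% in the muscle libraries and 1.40, 1.56, 1.31, 0.679 and 0.82% in the tendon libraries. The tendon libraries did not hold equal amounts of muscle RNA: the 9 slow-fibre sarcomere genes summed to 18422, 25635, 13070.2, 437 and 3033 CPM in tendon, where muscle had at least 108349 CPM and the MTJ at least 90693 CPM. CPM here are counts scaled to the library total and by TMM factors, which bring libraries to a common level from the bulk of their genes. Horses 14, 16 and 17 thus gave tendon sections with more muscle RNA than horses 18 and 20, and values with those 3 tendon libraries left out stand beside each subunit gene described below whose fold change they move by over 1.5 times. The 14 tenocyte markers found in the table summed to 1275 to 5577 CPM in the MTJ, 442 to 632 CPM in muscle and 20382 to 35865 CPM in tendon, so the tissues differed in the direction of their labels. In whole sections, fewer muscle cells and less of an RNA per cell cannot be told apart.

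Of the 76 genes 36 belong to complex I, 4 to complex II, 4 to complex III, 1 is cytochrome c, 13 belong to complex IV and 18 to complex V. NDUFA4 and NDUFA4L2 are counted with complex IV, where the NDUFA4 protein is found. The filter on low counts kept 74 genes. NDUFA2, an accessory subunit of complex I, had 0 counts in all 15 libraries, and 3 rows under LOC names that are described as NDUFA2 or similar to it had 233, 25 and 1 counts in all. COX7B2, a complex IV isoform known from testis in humans, had 3 counts in all. The 15 rows described as subunits that carry LOC names in place of symbols are described in the closing section.

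Levels of different genes were set side by side only per kilobase, over the length the table lists for each gene. In muscle the highest was ATP5F1B, the catalytic beta subunit of ATP synthase, at 3136 ± 349 CPM per kilobase (SD, n = 5), followed by COX5B, the zinc-binding subunit of complex IV, at 2654 ± 441, ATP5F1A, the alpha subunit, at 2409 ± 397, and NDUFA4 at 2145 ± 287. Of the 15343 genes tested, 45 of the 74 subunit genes ranked among the 200 highest per kilobase in muscle, 42 did in the MTJ and 10 did in tendon. Levels within 1 complex were far from even. The 5 subunits of the F1 head of ATP synthase ran from 47.96 ± 9.55 CPM per kilobase for ATP5F1D, the delta subunit, through 715 ± 139 for ATP5F1E, the epsilon subunit, and 1055 ± 74.2 for ATP5F1C, the gamma subunit that forms the turning shaft, to the alpha and beta subunits. In complex III CYC1, cytochrome c1, had 108 ± 31.6 CPM per kilobase in muscle beside 1099 ± 125 for UQCRC1, a core protein. In complex I the highest was NDUFB10, an accessory subunit of the membrane arm, at 1451 ± 176.

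**Figure D1:**
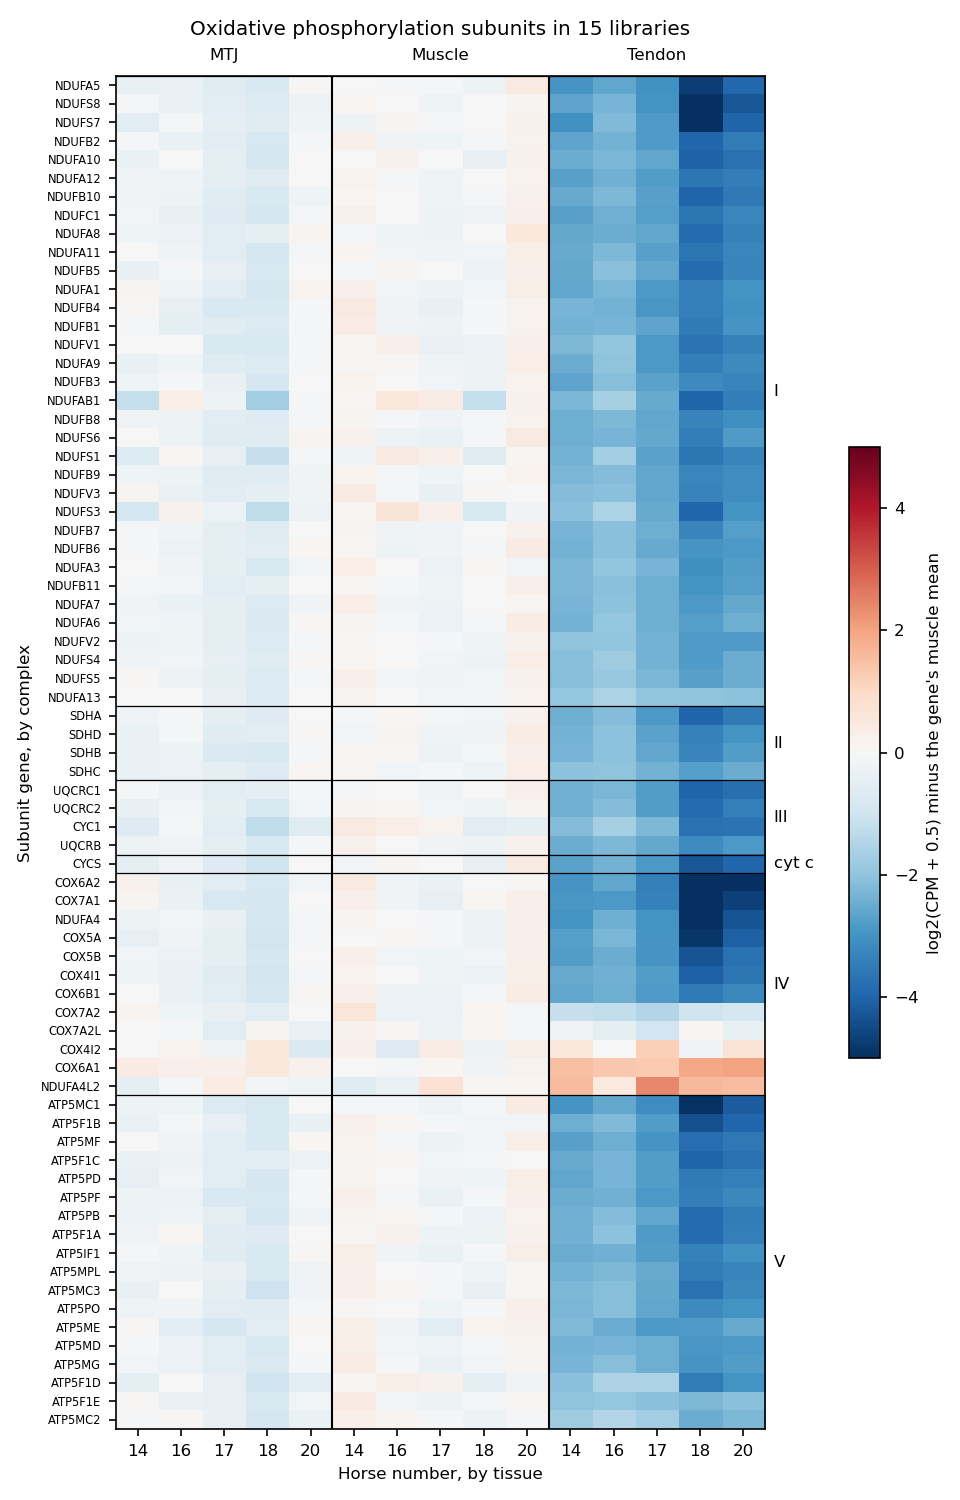
Subunit genes (73 rows, by complex and by their muscle over tendon change) in 15 libraries (columns, by tissue and horse), coloured by log2(CPM + 0.5) minus the gene's mean over the 5 muscle libraries, with colours ending at -5 and 5. Nearly all rows are pale in MTJ and muscle and blue in tendon, deepest in horses 18 and 20, and a few complex IV rows (COX6A1, NDUFA4L2) are red in tendon.

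Muscle had more of nearly every subunit RNA than tendon. Of the 74 genes tested, 71 were higher in muscle and 2 lower at an adjusted p under 0.05 (edgeR quasi-likelihood test, Benjamini-Hochberg over all 15343 genes), where 34.6% of all genes were higher and 38.8% lower. The median log2 change of muscle over tendon was 2.79, or 6.89-fold, against -0.13 over all genes. The 5 muscle libraries lay wholly above the 5 tendon libraries for 70 genes and wholly below them for 1, against 25.1% and 26.6% of all genes. By complex the medians were 2.76 for the 35 genes of complex I, 2.64 for the 4 of complex II, 2.81 for the 4 of complex III, 2.98 for the 12 of complex IV and 2.80 for the 18 of complex V. The range was widest in complex IV, which ran from -1.71 to 4.02, while complex I ran from 1.91 to 3.38 and complex V from 1.95 to 3.47. With only the tendon libraries of horses 18 and 20 the median was 3.33, with 70 genes higher and 2 lower, and the fold change of 33 of the 74 genes was over 1.5 times as large. With library totals and no TMM scaling the median over all genes was -1.36, that of the subunit genes 1.55, and 69 were higher and 4 lower.

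**Figure D2:**
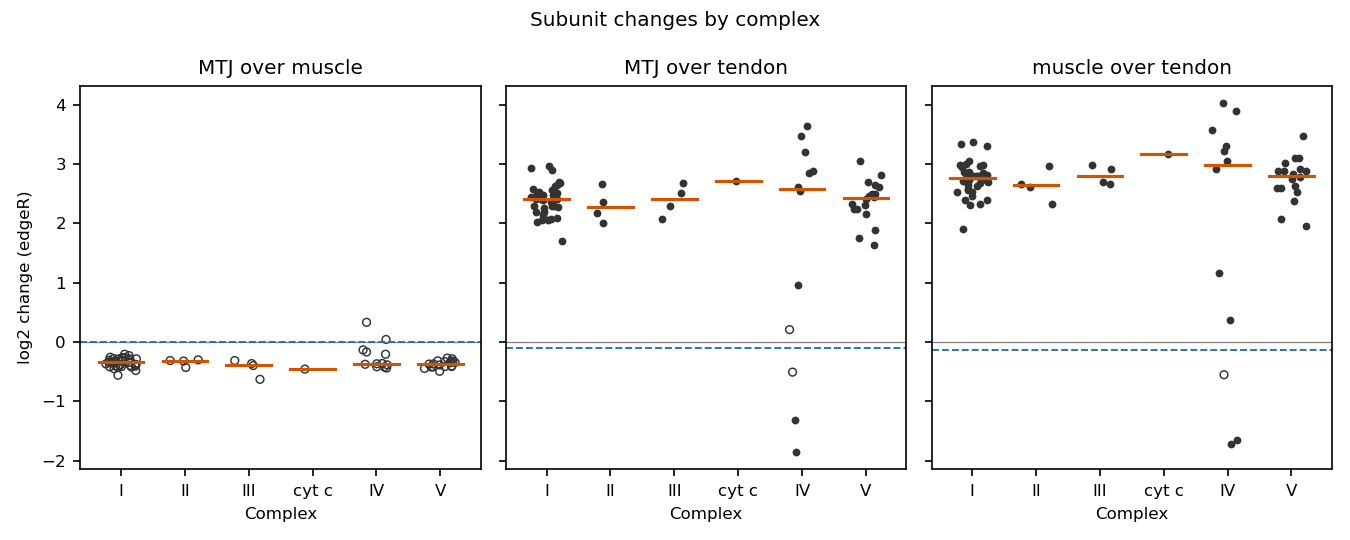
log2 change (edgeR, y axis) of each tested subunit gene by complex in MTJ over muscle, MTJ over tendon and muscle over tendon; filled points passed an adjusted p of 0.05, orange bars are the medians of the complexes, and dashed lines the medians over all genes. The medians of the complexes sit near -0.36, 2.42 and 2.79 in the 3 comparisons, and the scatter is widest in complex IV.

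Complex I was higher in muscle than in tendon for each of its 35 tested genes, 7 core and 28 accessory subunits. NDUFA5, an accessory subunit of the matrix arm, had 567, 538, 526, 480.2 and 768 CPM in muscle, against 73.2, 93.7, 70.1, 21.2 and 37.4 CPM in tendon. It had the largest change of the complex, 3.38 ± 0.31 on the log2 scale (SE, 5 horses; edgeR adjusted p = 1.09e-06), and its 2 groups did not overlap. With the 3 tendon libraries rich in muscle RNA left out it was 4.42, below NDUFS8 at 4.64 and NDUFS7 at 4.54, core subunits that carry iron-sulfur clusters. NDUFA13, also known as GRIM-19, had 286, 255, 235, 232 and 288 CPM in muscle, against 67.6, 85.9, 65.8, 63.7 and 62.3 CPM in tendon. Horse 16 had the highest tendon value of NDUFA13 and the other 4 lay close together, all below the muscle libraries. Its change was the smallest of the complex at 1.91 ± 0.13 (edgeR adjusted p = 1.10e-07).

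Complexes II and III and cytochrome c were higher in muscle for all 9 genes. SDHA, the flavoprotein that oxidises succinate, had 2014, 2239, 1954, 1930.0 and 2488 CPM in muscle, against 394, 467, 290.3, 131 and 184 CPM in tendon. Its log2 change was 2.96 ± 0.29 (edgeR adjusted p = 1.63e-06), or 3.78 with the 3 libraries left out, and the tendon libraries of horses 18 and 20 were the lowest. SDHC, a membrane anchor of the same complex, changed least in it at 2.32 ± 0.15 (edgeR adjusted p = 9.43e-08), with 372, 326, 332, 308 and 452 CPM in muscle, against 85.9, 88.8, 68.6, 52.8 and 63.1 CPM in tendon. In complex III UQCRC1 had 1717, 1761, 1600.2, 1769 and 2143 CPM in muscle, against 338, 365, 259, 111 and 131 CPM in tendon. It changed by 2.99 ± 0.32 and UQCRB, a small subunit that binds ubiquinone, by 2.66 ± 0.15 (edgeR adjusted p = 3.58e-06 and 4.15e-08), and UQCRC1 by 3.99 with the 3 libraries left out. CYCS, cytochrome c itself, had 1032, 1243, 1099.7, 834 and 1518 CPM in muscle, against 174, 216, 153, 57.5 and 71.4 CPM in tendon. This came to 3.18 ± 0.30 on the log2 scale (edgeR adjusted p = 1.40e-06), above the median of each complex, and to 4.12 with the 3 libraries left out.

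Complex V was higher in muscle for all 18 genes, from the F1 head to the peripheral stalk and the inhibitor protein ATP5IF1. ATP5F1B had 6734, 6241, 5588, 5224 and 5317 CPM in muscle, against 1063, 1254, 836, 275 and 367 CPM in tendon. Its log2 change was 3.11 ± 0.35 (edgeR adjusted p = 5.65e-06), and no libraries overlapped. It was 4.05 with the 3 tendon libraries left out. Subunit c, which forms the ring that turns in the membrane, is made from ATP5MC1, ATP5MC2 and ATP5MC3, whose mature proteins are the same. ATP5MC1 (NCBI gene 100069523, chromosome 11) had 1410.4, 1412, 1263, 1398 and 1956 CPM in muscle, against 189, 247, 169.7, 47.2 and 82.2 CPM in tendon. ATP5MC2 (NCBI gene 100064131, chromosome 6) had 501, 466, 396, 351 and 397 CPM in muscle, against 121, 152, 124, 74.7 and 87.04 CPM in tendon, and ATP5MC3 (NCBI gene 100053347, chromosome 18) had 716, 647, 571, 469.7 and 653 CPM in muscle, against 128, 139.8, 103, 45.04 and 64.8 CPM in tendon. ATP5MC1 changed most in complex V at 3.47 ± 0.37 and ATP5MC2 least at 1.95 ± 0.13, with ATP5MC3 between them at 2.75 ± 0.21 (edgeR adjusted p = 3.69e-06, 1.14e-07 and 2.24e-07). With the 3 tendon libraries left out ATP5MC1 changed by 4.66, ATP5MC3 by 3.34 and ATP5MC2 by 2.16, and the smallest change of the complex was that of ATP5F1E at 2.11.

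Complex IV held both the largest and the only negative changes. COX5A and COX5B, which carry no isoform pair, and COX4I1, COX6B1 and NDUFA4, the common forms of theirs, were all higher in muscle, by 2.91 to 3.57, or by 3.41 to 4.92 with the 3 tendon libraries left out. COX4I1, the common form of the largest nuclear-encoded subunit, had 1362, 1197, 1039, 993 and 1485 CPM in muscle, against 209, 229, 175, 70.1 and 94.05 CPM in tendon. NDUFA4 changed by 3.57 ± 0.41 and had 1389, 1243, 1192, 1055 and 1492 CPM in muscle, against 157, 229.7, 157, 25.4 and 62.7 CPM in tendon (edgeR adjusted p = 7.25e-06), or by 4.92 with the 3 libraries left out. Its tendon value in horse 18 was the lowest by far.

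The muscle isoforms changed most of all. COX6A2 (NCBI gene 100063197, chromosome 13), the heart and muscle form of subunit VIa, had 910.2, 594, 519, 441 and 716 CPM in the MTJ, 1057, 691, 624, 760.0 and 817 CPM in muscle and 99.4, 127, 72.5, 1.60 and 21.6 CPM in tendon. The tendon value of horse 18 rested on 51 counts and lay far below the other tendon libraries. MTJ and muscle overlapped, and every tendon library lay below both. Its change of muscle over tendon was 4.02 ± 0.75 (edgeR adjusted p = 3.95e-04), and 6.58 when the 3 tendon libraries rich in muscle RNA were left out. COX7A1 (NCBI gene 106782100, chromosome 10), the heart and muscle form of subunit VIIa, had 705, 507, 375, 365 and 658 CPM in the MTJ, 772, 566, 488, 689 and 769 CPM in muscle and 86.7, 87.5, 61.97, 5.01 and 25.02 CPM in tendon. It changed by 3.89 ± 0.57 (edgeR adjusted p = 5.54e-05), and by 5.83 when those 3 were left out. Horse 18 again had the lowest tendon value, and no tendon library reached a muscle or MTJ library.

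The forms found in most tissues went other ways. COX6A1 (NCBI gene 100053420, chromosome 8), the partner of COX6A2, had 28.9, 25.7, 25.5, 30.9 and 25.1 CPM in the MTJ, 21.3, 20.1, 23.03, 19.2 and 24.4 CPM in muscle and 62.1, 55.5, 54.1, 83.4 and 88.9 CPM in tendon. Every tendon library was above every MTJ library, and every MTJ library above every muscle library. COX6A1 was lower in muscle than in tendon, with a log2 change of -1.65 ± 0.13 (edgeR adjusted p = 4.01e-07), and stayed lower with RLE factors (-1.63) and with library totals alone (-2.89). COX7A2 (NCBI gene 100630209, chromosome 10), the partner of COX7A1, had 62.3, 48.00, 43.3, 38.4 and 55.4 CPM in the MTJ, 85.7, 45.2, 45.5, 59.5 and 52.6 CPM in muscle and 24.8, 23.7, 19.7, 27.6 and 30.5 CPM in tendon. No muscle library fell as low as a tendon library. COX7A2 was higher in muscle by 1.16 ± 0.14 (edgeR adjusted p = 1.28e-05), but at -0.08 with library totals and no TMM scaling. COX7A2L (NCBI gene 100053736, chromosome 15), which links complexes III and IV into supercomplexes, had 62.9, 60.3, 44.8, 71.2 and 51.1 CPM in the MTJ, 73.8, 66.7, 53.97, 68.7 and 59.8 CPM in muscle and 56.2, 45.6, 32.9, 69.6 and 49.9 CPM in tendon. Muscle and tendon overlapped, and the change was 0.38 ± 0.10 (edgeR adjusted p = 0.00496), 0.17 with the 3 tendon libraries left out (edgeR adjusted p = 0.183) and -0.86 with library totals alone.

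Both paralogues known from low-oxygen responses in humans and mice were scarce. NDUFA4L2 (NCBI gene 100052985, chromosome 6), the relative of NDUFA4, had 1.81, 2.50, 3.62, 2.43 and 2.30 CPM in the MTJ, 1.62, 2.02, 4.84, 2.94 and 2.96 CPM in muscle and 9.22, 3.95, 16.5, 9.31 and 8.90 CPM in tendon. Horse 16 had the lowest tendon value, below the highest muscle value. NDUFA4L2 was lower in muscle than in tendon, with a log2 change of -1.71 ± 0.23 (edgeR adjusted p = 2.85e-05), also with RLE factors (-1.69) and with library totals alone (-2.96). COX4I2 (NCBI gene 100053548, chromosome 22), the relative of COX4I1, had 1.89, 2.20, 1.61, 2.89 and 0.946 CPM in the MTJ, 2.32, 1.01, 2.53, 1.47 and 2.41 CPM in muscle and 2.87, 1.91, 4.90, 1.60 and 3.25 CPM in tendon. The 3 tissues overlapped, and its change of -0.55 ± 0.37 did not pass (edgeR adjusted p = 0.192), though with library totals alone it was -1.79 (edgeR adjusted p = 7.62e-04). Both genes are also known from pericytes, the cells that wrap small vessels. Of 11 pericyte and smooth muscle markers 9 were tested, of which 1 was higher (RGS5) and 5 lower in muscle than in tendon. Of all genes 34.6% were higher and 38.8% lower. The summed level of the markers was 535 to 1240 CPM in the MTJ, 525 to 885 CPM in muscle and 484 to 949 CPM in tendon. Among tendon libraries horse 17 had the highest summed level of these markers and the highest NDUFA4L2 and COX4I2. Horse 18, with the lowest sum, had the lowest COX4I2 in tendon, at 1.60 CPM. Its NDUFA4L2 in tendon was 9.31 CPM, close to horses 14 (9.22 CPM) and 20 (8.90 CPM). The MTJ of horse 18 had the highest sum of all 15 libraries, with NDUFA4L2 at 2.43 CPM and the highest COX4I2 of the MTJ libraries, at 2.89 CPM. Of the 2 markers not tested, KCNJ8 had 3 counts in all libraries and ABCC9 had 22, none of them in tendon. The part of these cells in the 2 genes was not tested.

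**Figure D3:**
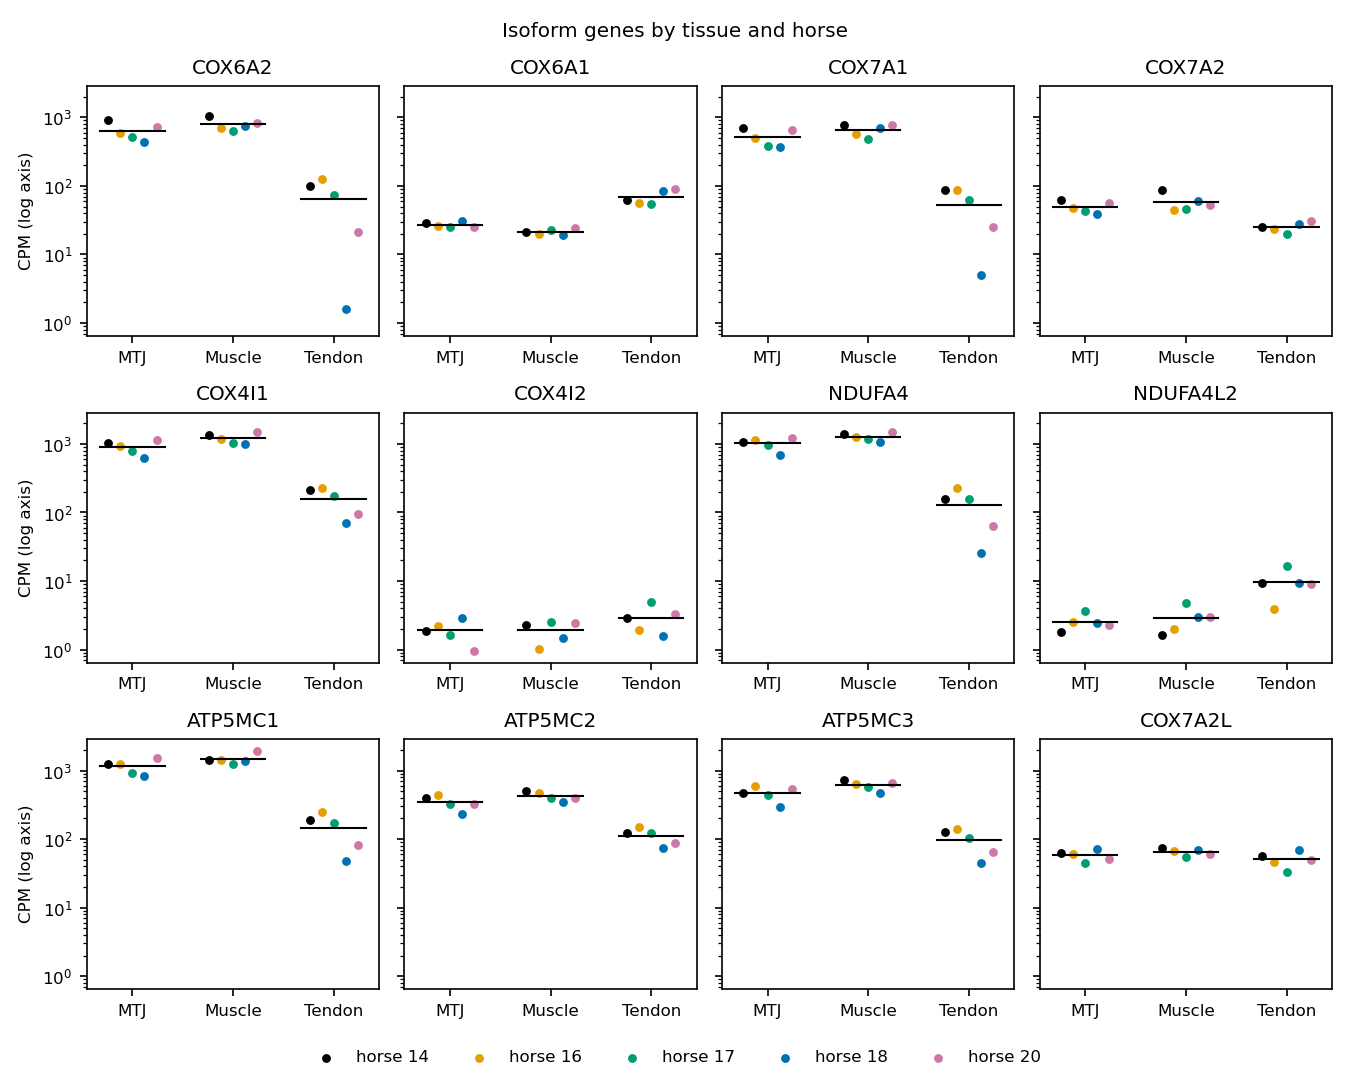
CPM (log axis) of 12 isoform genes in MTJ, muscle and tendon, 1 point per library coloured by horse, with bars for the mean of 5 horses. COX6A2 and COX7A1 drop furthest in the tendon of horse 18 (1.60 and 5.01 CPM), while COX6A1 and NDUFA4L2 stand higher in tendon than in muscle.

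The balance within each pair was then tested as a log2 ratio of CPM in the same library, with 0.5 CPM added to both, by an exact two-sided test that permutes the 3 tissue labels within each horse in all 7776 ways. Its smallest possible p is 0.000772, and p-values were adjusted over the 6 ratios that could be formed. Each p-value covers any difference among the 3 tissues, not muscle against tendon alone. Levels within a pair are given per kilobase, since the lengths of the 2 genes differ; length cancels from the difference between tissues but for the 0.5 CPM added. Per kilobase COX6A2 had 42.9, 31.5, 27.7, 19.4 and 38.9 times the CPM of COX6A1 in the MTJ, 67.7, 46.8, 36.9, 53.9 and 45.7 times in muscle and 2.18, 3.11, 1.82, 0.0261 and 0.331 times in tendon. The ratio thus favoured the muscle form in every MTJ and muscle library, but the common form in the tendon of horses 18 and 20. Muscle minus tendon was 6.15 ± 2.76 (log2, SD over 5 horses; exact p = 0.000772, the smallest possible, adjusted 0.00231), or 8.82 in horses 18 and 20 alone. Per kilobase COX7A1 had 28.6, 26.7, 21.9, 24.1 and 30.1 times the CPM of COX7A2 in the MTJ, 22.8, 31.7, 27.1, 29.3 and 36.99 times in muscle and 8.85, 9.33, 7.95, 0.46 and 2.07 times in tendon. Of the 15 libraries the tendon of horse 18 alone favoured the common form, and horse 20 had the next lowest ratio. Muscle minus tendon was 2.99 ± 1.95 (exact p = 0.00463, adjusted 0.00463), or 5.01 in horses 18 and 20 alone.

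Of the other ratios 3 are given here. For NDUFA4L2 over NDUFA4 muscle minus tendon was -5.21 ± 1.38 (log2, SD over 5 horses; exact p = 0.00309, adjusted 0.00463), lower in 5 of 5 horses, and -6.43 in horses 18 and 20 alone. Per kilobase NDUFA4 had 1514, 1089, 436, 634 and 892 times the CPM of NDUFA4L2 in muscle, but 30.2, 103, 16.9, 4.82 and 12.5 times in tendon. For COX4I2 over COX4I1 muscle minus tendon was -3.53 ± 0.58 (exact p = 0.00463, adjusted 0.00463), also lower in 5 of 5 horses, and -4.12 in horses 18 and 20 alone. ATP5MC3 over ATP5MC2 was higher in muscle in 5 of 5 horses, by 0.82 ± 0.32 (exact p = 0.000772, adjusted 0.00231). Between MTJ and muscle the differences were smaller: COX6A2 over COX6A1 was lower in the MTJ in 5 of 5 horses, with a difference of -0.66 ± 0.47, and COX7A1 over COX7A2 in 4 of 5, with a difference of -0.16 ± 0.27. The exact test covers the 3 tissues together, so neither muscle against tendon nor MTJ against muscle was tested alone for these ratios.

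The level in each tendon library was also expressed as a percentage of the same horse's muscle and set beside the authors' muscle reference genes, a deposited list of 219 genes higher in muscle than in tendon, of which 212 were used after leaving out the 5 that are subunit genes and those not tested. The median of the 74 subunit genes was 16.9, 21.7, 17.5, 9.81 and 9.69%, against 13.7, 17.6, 11.7, 0.325 and 2.55% for the muscle reference genes. In horses 14, 16 and 17 the subunit genes stood at 1.23, 1.23 and 1.5 times the median of the reference genes, in horse 18 at 30.2 times and in horse 20 at 3.81 times. Genes listed for being higher in muscle than in tendon are low in tendon by that choice. The 5 subunit genes on the list had log2 changes of 3.35 to 3.83 there, while the edgeR median of all subunit genes was 2.79. The difference from the list was not tested. The lowest subunit genes in the tendon of horse 18 were COX6A2 and COX7A1, at 0.21% and 0.728% of muscle, and NDUFA4 was next at 2.40%. At the other end ATP5MC2 kept 24.1, 32.7, 31.2, 21.3 and 21.9% of its muscle level in tendon, NDUFA13 23.6, 33.8, 28.1, 27.4 and 21.7% and COX7A2 28.9, 52.6, 43.3, 46.4 and 58.00%. COX7A2L stood at 76.1, 68.4, 60.9, 101 and 83.4%, and COX6A1 at 292, 276, 235, 434 and 365%. The percentages rest on TMM scaling, and COX6A2, COX7A1, NDUFA4, ATP5MC1 and NDUFA5 are in the authors' full list of muscle genes.

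**Figure D4:**
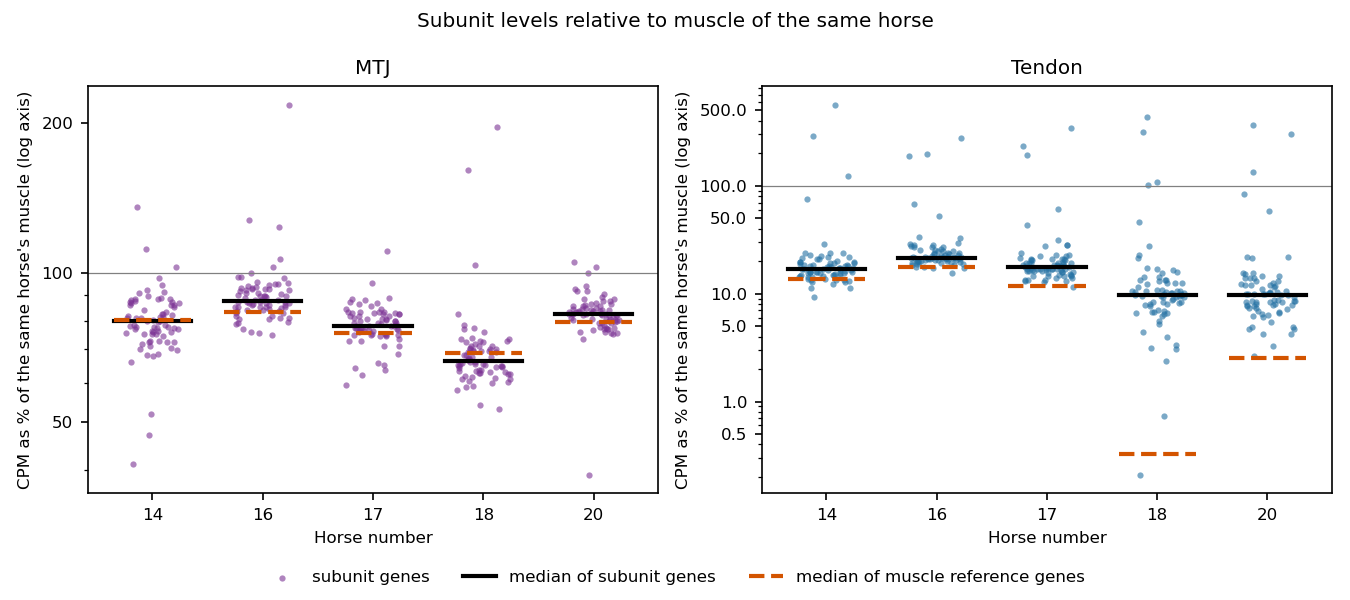
CPM of each subunit gene in the MTJ (left) and in tendon (right) as a percentage of the same horse's muscle (log axis), by horse; solid bars are the medians of the 74 subunit genes and dashed bars those of 212 muscle reference genes. The bars nearly coincide in the MTJ (66.2 to 87.7% against 68.8 to 83.3%), but part in the tendon of horses 18 and 20.

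Against tendon 70 subunit genes were higher in the MTJ and 2 lower (edgeR, adjusted p under 0.05), where 32.8% of all genes were higher and 34.5% lower. The MTJ libraries lay wholly above the tendon libraries for 69 genes and wholly below them for 2, against 23.6% and 21.9% of all genes. This comparison and that of muscle share the tendon libraries. The median log2 change was 2.42, against -0.11 over all genes. By complex the medians were 2.41, 2.27, 2.40, 2.58 and 2.43 for complexes I to V. The 2 lower genes were COX6A1 at -1.32 ± 0.13 and NDUFA4L2 at -1.85 ± 0.23 (edgeR adjusted p = 3.77e-06 and 2.26e-05). COX7A2L at 0.21 ± 0.10 and COX4I2 at -0.51 ± 0.37 did not pass (edgeR adjusted p = 0.0835 and 0.243), but both passed without horse 18, where COX7A2L MTJ over tendon was 0.26 and COX4I2 MTJ over tendon was -0.89.

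Against muscle the MTJ had slightly less of almost every subunit RNA, but in the fit of all 15 libraries no single gene passed. Of the 74 genes 72 had negative changes, as had 50.5% of all genes, with a median of -0.36 on the log2 scale, or 0.782-fold, and a range of -0.63 to 0.33. The median over all genes was 0.997-fold. No gene was called higher or lower (edgeR), against 6.11% and 0.502% of all genes, and 22 had an unadjusted p under 0.05, as had 20.5% of all genes. Of the 22, 21 were lower in the MTJ, while 970 of all 15343 genes were lower at that threshold. These 22 became 2 without horse 14, 8 without horse 17, 3 without horse 18 and 2 in a fit without the horse term. They became 1 with library totals and 19 without the low-count filter. Other settings gave more: 24 without horse 16, 25 without horse 20, 28 with RLE factors and 33 in DESeq2. The number was 65 without the 3 tendon libraries rich in muscle RNA and 71 with the 10 MTJ and muscle libraries alone. The MTJ libraries lay wholly above the muscle libraries for 1 gene (COX6A1) and wholly below them for 1 (ATP5F1C), against 4.61% and 1.02% of all genes. DESeq2 called 1 gene lower, UQCRB, and none higher, against 1.86% and 7.53% of all genes. With the 10 MTJ and muscle libraries fitted alone, 66 genes were lower and 1 higher (edgeR), where 10.2% of all genes were lower and 10.9% higher, and the median of -0.35 was nearly the same. When the 3 tendon libraries rich in muscle RNA were left out, 26 genes were lower and none higher, against 2.81% and 7.3% of all genes, at a median of -0.34. The 3 medians were close, while the number of genes called ran from 0 to 66.

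COX4I1 had 1041, 947, 790.5, 629.8 and 1148 CPM in the MTJ, against 1362, 1197, 1039, 993 and 1485 CPM in muscle, lower in 5 of 5 horses. The groups overlapped, with the MTJ of horse 20 above the muscle of horses 17 and 18. Its log2 change was -0.44 ± 0.25 with all 15 libraries (edgeR adjusted p = 0.353) and -0.43 ± 0.07 with 10 (edgeR adjusted p = 0.00111). UQCRB had 366, 379.6, 311, 254 and 403 CPM in the MTJ, against 506, 435, 382, 367 and 498 CPM in muscle. It was lower in 5 of 5 horses though the groups overlapped, and changed by -0.36 ± 0.14 (edgeR adjusted p = 0.16 with 15 libraries and 0.00341 with 10). The genes not called in the fit of 10 libraries included NDUFA1, NDUFA13, COX4I2, COX7A2, COX7A2L and NDUFA4L2. COX6A1 went the other way, at 28.9, 25.7, 25.5, 30.9 and 25.1 CPM in the MTJ, against 21.3, 20.1, 23.03, 19.2 and 24.4 CPM in muscle. The groups did not overlap, and its change of 0.33 ± 0.13 had an adjusted p of 0.174 with 15 libraries and 0.0307 with 10 (edgeR).

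The MTJ libraries of horses 14 to 20 held the subunit genes at a median of 79.8, 87.7, 78.2, 66.2 and 82.5% of the same horse's muscle. The muscle reference genes stood at 80.4, 83.3, 75.4, 68.8 and 79.6%, so that horse 18 was lowest and horse 16 highest by both measures. By tendon content the order differed: the tenocyte markers summed to 2095, 1275, 5577, 3049.9 and 2998 CPM in the same 5 MTJ libraries.

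Each MTJ library was then compared with a mixture of the same horse's muscle and tendon, at the shares of muscle and tendon RNA given by the authors' reference genes with the subunit genes left out. The muscle share was 77.5 ± 5.64% and the tendon share 15.9 ± 5.16% (SD, n = 5). Against this mixture no subunit gene was above or below (limma on the 5 log2 ratios, adjusted p under 0.05), where 0.795% of all genes were above and 0.215% below, and 1 subunit gene had an unadjusted p under 0.05, as had 15.6% of all genes. The median log2 ratio was -0.02, against 0.05 over all genes, and 0.01 against 0.13 where both shares were solved jointly (76.4% and 11.8%), again with no gene called. The widest departures were NDUFA4L2 at -0.44 ± 0.16, CYC1 at -0.32 ± 0.14 and NDUFAB1, the mitochondrial acyl carrier protein, at -0.26 ± 0.16 (limma adjusted p = 0.256, 0.33 and 0.489), genes named after their values were seen. COX6A1, higher in the MTJ than in muscle by 0.33, stood at -0.01 against the mixture and at 0.15 with shares solved jointly. In the authors' deposited table of MTJ changes, whose header gives a log2 change and an FDR, 72 subunit genes had a median log2 change of -0.02. None of them had an FDR under 0.05 in the authors' deposited table, against 30 of the 7613 genes listed there. In it 49 of the 72 had negative changes. COX4I1, negative in all 5 horses with a log2 change of -0.10, had an authors' FDR of 0.999958. ATP5F1A, at 0.06, had the lowest authors' FDR of the 72, at 0.182. The test behind this FDR is not explained, so it cannot say whether subunit genes were lower than the authors' baseline.

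**Figure D5:**
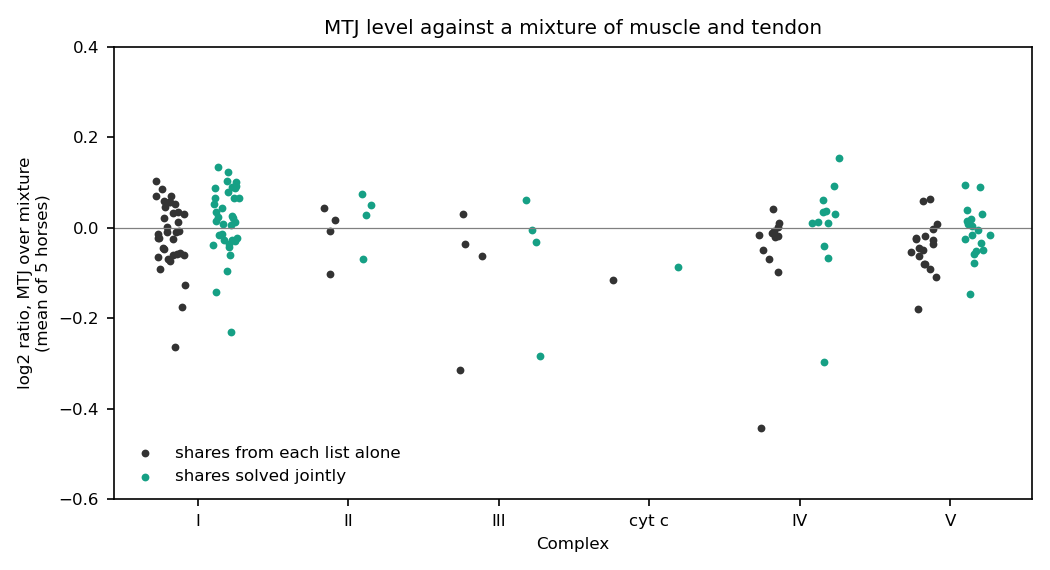
Mean log2 ratio of MTJ over the mixture of muscle and tendon (y axis) for each tested subunit gene, by complex, with shares from each reference list alone (dark) and solved jointly (green). Most points lie near 0, and NDUFA4L2 in complex IV is lowest at -0.44 and -0.30.

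The median coefficient of variation was 20.6% in the MTJ, 16.3% in muscle and 36.4% in tendon. In the MTJ 61 of 74 genes were lowest in horse 18 and 44 highest in horse 20. In muscle 42 genes were highest in horse 20 and 23 in horse 14, while 39 were lowest in horse 17. In tendon 67 genes were highest in horse 16 and 66 lowest in horse 18. NDUFAB1 and NDUFS3, a core subunit of complex I, varied more between horses than most, and were chosen after their values were seen. NDUFAB1 had 101, 289.9, 195, 70.04 and 219 CPM in the MTJ, 245, 337, 299.6, 102 and 266 CPM in muscle and 47.4, 73.1, 40.3, 13.8 and 20.96 CPM in tendon. NDUFS3 had 105, 225, 155, 78.2 and 159.6 CPM in the MTJ, 203, 299, 226, 111 and 169.9 CPM in muscle and 44.1, 64.4, 33.3, 11.7 and 23.6 CPM in tendon. Both were highest in horse 16 and lowest in horse 18 in all 3 tissues, and their coefficients of variation in muscle of 35.8% and 34.4% were among the highest, with those of NDUFA4L2 (43.1%) and COX4I2 (34.5%). ATP5F1C varied least in muscle, by 7.03%, at 1352, 1306, 1138, 1183 and 1245 CPM.

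Genes that build, feed and regulate the complexes were taken from lists chosen for this comparison. Their calls and values follow the same fit of all 15 libraries, the 3 tendon libraries rich in muscle RNA included, with 34.6% of all genes higher and 38.8% lower in muscle than in tendon. All 14 genes of the citric acid cycle were higher in muscle (median 2.71), among them CS, citrate synthase, at 3.14 ± 0.28. All 12 genes that organise cristae and supercomplexes were higher too (median 1.88). Of the assembly factors 16 of 16 for complex I were higher (median 1.54), 3 of 3 for complex II (1.15), 5 of 5 for complex III (1.45), 18 of 21 for complex IV (1.42) and 5 of 6 for ATP synthase (1.38), and none was lower. COX10, which makes the heme of complex IV, changed by 3.56 ± 0.51, and SCO1, a copper chaperone of complex IV, did not pass at -0.23 ± 0.17 (edgeR adjusted p = 0.219).

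Of 12 carriers, porins and import proteins of mitochondrial membranes 10 were higher in muscle and 1 lower. SLC25A4, the ADP/ATP carrier of heart and muscle, had 6601, 5195, 4224, 4606 and 5089 CPM in muscle, against 773, 832, 539.7, 31.7 and 158 CPM in tendon. SLC25A6, another ADP/ATP carrier, had 237, 158, 155, 164 and 105 CPM in muscle, against 313, 257, 257, 287 and 242 CPM in tendon. The muscle form was higher in muscle by 3.81 ± 0.63 and SLC25A6 was lower, at -0.77 ± 0.12 (edgeR adjusted p = 1.58e-04 and 8.70e-05). Of 17 regulators of mitochondrial biogenesis 11 were higher in muscle and 3 lower. PPARGC1A, the coactivator PGC-1 alpha, changed by 3.59 ± 0.62, PERM1, a muscle regulator downstream of it, by 3.72 ± 0.66 and ESRRA, an orphan nuclear receptor, by 2.75 ± 0.24. NRF1, nuclear respiratory factor 1, was lower in muscle, at -0.83 ± 0.14 (edgeR adjusted p = 1.52e-04), with 8.66, 8.16, 6.60, 6.18 and 9.11 CPM in muscle, against 14.3, 13.4, 9.70, 14.8 and 17.2 CPM in tendon. Across these lists 3 of 106 genes tested passed in the MTJ against muscle, all lower, where 0.502% of all genes were lower and 6.11% higher: ESRRG, a nuclear receptor, at -0.52 ± 0.13, PHB2, a prohibitin, at -0.31 ± 0.09 and DMAC2, a complex I assembly factor, at -0.34 ± 0.09 (edgeR adjusted p = 0.0384, 0.0493 and 0.038).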

How the data were processed

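Per the file headers, the main deposited table holds raw counts by gene, whole numbers in 15 libraries made by random-primed cDNA synthesis and DNBseq sequencing. The labels give either oligo dT selection or rRNA depletion, without saying which. The submitters' processing notes name the build EquCab3.0 and DESeq2 1.26.0. Aligner, counter and strandedness were not given in the sources used here, so reads of overlapping or near-identical genes, such as the ATP5MC genes, could be split between copies. The same table holds rlog values on a log2 scale by the authors, not used here, and a length per gene that the file headers do not explain. The authors also deposited a table of log2 changes of the MTJ with FDRs, whose baseline its header does not explain, and reference lists of 219 muscle and 322 tendon genes, each gene with a log2 change and an FDR (an adjusted p-value).

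The members and gene lists were chosen with earlier results of these data known. Counts were tested with edgeR 4.0.16 in R 4.3.3 (TMM, filterByExpr by tissue, quasi-likelihood, tissue and horse as terms, all 15 libraries, so that the tissues share 1 estimate of the spread, Benjamini-Hochberg over 15343 genes). Horse was kept as a block because each horse gave all 3 tissues: deviations from tissue means correlated at r of 0.15 to 0.589 over 15 pairs from the same horse, against -0.33 to 0.16 between horses. MTJ was set against muscle and tendon mixtures with limma 3.58.1 on log2 ratios with 0.5 CPM added. On simulated data, shares taken from 1 list at a time overstated the tendon share, so values with shares solved jointly, an alternative added after the data were seen, are given beside them. Genes were named by a fixed rule: isoform genes, in each complex the largest and smallest change of muscle over tendon and the highest CPM in muscle, genes called in the MTJ against muscle or the mixture or called higher in tendon than in muscle, and those under the filter; genes named beside it were chosen after their values were seen. Alternatives were DESeq2 1.42.0, other scalings, filters and pseudocounts, and leaving out horses or tendon libraries. Values of 1 named subunit gene and 1 of the 6 isoform ratios are not reported here, though both stayed in the counts and adjustments. No 2 libraries held identical counts. Nothing was tested on the isoform pairs of COX8 and COX6B, which lack a tested partner by symbol. Counting error alone is small at these depths for most values. Exceptions are COX4I2 and NDUFA4L2, with 12 to 133 and 21 to 447 counts per library, and COX6A2 in the tendon of horse 18, with 51.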

Additional observations from a re-analysis of the deposited data

Results flagged for a closer look

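Among 23 named genes in 3 tissues, 2 of 69 groups of 5 libraries held a value far from the rest by Dixon's criterion (0.71 for 5 values), where chance gives about 1 in 20. ATP5MC1, which encodes subunit c of ATP synthase, was at 1956 CPM in the muscle of horse 20, while the other muscle libraries were at 1263 to 1412 CPM. NDUFA13, an accessory subunit of complex I, was at 85.9 CPM in the tendon of horse 16, while the other tendon libraries were at 62.3 to 67.6 CPM.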

How the results depend on the processing

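The 71 and 2 calls of muscle against tendon and the 70 and 2 of MTJ against tendon stayed within 1.5 times in all alternatives but library totals without scaling factors, where 4 genes were lower in muscle and 4 in the MTJ than in tendon, and 1 was higher in the MTJ than in muscle. There COX7A2 turned to -0.077 in muscle and -0.054 in the MTJ over tendon and COX7A2L to -0.86 in muscle over tendon, as the median of all genes moved to -1.36. The calls of MTJ against muscle were 66 lower and 1 higher with the 10 libraries of the 2 tissues alone, 26 lower without the tendon libraries of horses 14, 16 and 17, and 1 lower in DESeq2. Without a replicate block, in a fit that ignores which horse a library came from, 70 genes were higher and 2 lower in muscle than in tendon, 70 and 2 in the MTJ than in tendon, and 0 and 0 in the MTJ than in muscle; among named genes COX7A2L muscle over tendon lost its call (0.35, edgeR adjusted p = 0.0913). Leaving out each horse in turn gave 71 higher and 2 lower in muscle than tendon, 70 to 71 higher and 2 to 3 lower in MTJ than tendon, and 0 in MTJ against muscle or the mixture. The 5 isoform ratios given here kept their direction and their side of the threshold under pseudocounts of 0.1 and 2 CPM, library totals and single horses left out. In horses 18 and 20 alone, with no test, they were 8.82 for isoform ratio COX6A2/COX6A1, 5.01 for COX7A1/COX7A2, -6.43 for isoform ratio NDUFA4L2/NDUFA4, -4.12 for isoform ratio COX4I2/COX4I1 and 1.14 for ATP5MC3/ATP5MC2. The causes of these shifts were not tested. Low counts limit COX4I2 and NDUFA4L2, and COX6A2 in the tendon of horse 18.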

Other observations

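The 15 rows described as subunits under LOC names were mostly of complexes III and IV. Of the 11 tested, 10 were higher in muscle than in tendon and 1 lower (edgeR), where 34.6% of all genes were higher and 38.8% lower. Their median log2 change was 2.91, against -0.13 over all genes. These values include the 3 tendon libraries rich in muscle RNA, and none without them are given for these rows. LOC100630758, described as cytochrome c oxidase subunit 7B, was at 1156 ± 159.7 CPM in muscle libraries and 142 ± 53.97 CPM in tendon (SD, n = 5 each), and LOC100051878, described as subunit 6 of complex III, changed by 3.39 ± 0.34. The lower one was LOC111775959, described as cytochrome c oxidase subunit 8A, the form of subunit VIII found in most tissues. It had 30.1, 26.2, 30.3, 28.5 and 23.9 CPM in the MTJ, 32.9, 24.9, 19.96, 23.5 and 19.3 CPM in muscle and 48.5, 51.97, 54.4, 78.8 and 85.7 CPM in tendon. Every tendon library was above every muscle library, and the change of muscle over tendon was -1.40 ± 0.19 (edgeR adjusted p = 3.18e-05), near that of COX6A1. These rows were described after their values were seen.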
